A study of Mus musculus with 12 samples.

Results

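The genes described here are 34 DNA repair, Fanconi anaemia and damage checkpoint genes of the mouse, taken by symbol from a fixed list, out of 24062 gene entries in each of the study's expression tables. The list is one of function, and no measured value enters its rule. It was, however, chosen with earlier results of these data known. All 34 were found in both tables, and their mean level over the 4 groups ran from 1.86 FPKM to 57.8 FPKM, with a median of 7.29 FPKM. FPKM is the number of reads of a gene divided by its length and by the depth of the library, so levels of different genes can be set side by side on it.

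The study measured polyadenylated RNA in BV2 cells, an immortalised mouse microglial line, after the level of Spi1 had been lowered or raised for a short time. Spi1 encodes PU.1, an ETS transcription factor that directs the development of myeloid cells. There were 12 libraries in 4 groups of 3. In the knockdown experiment a short hairpin RNA against Spi1 (Spi1 knockdown) was set against a scrambled hairpin (scrambled control), and in the overexpression experiment a Spi1 cDNA (Spi1 overexpression) was set against an empty control. All 12 libraries came from cells sorted by flow cytometry after transient delivery, grown in DMEM with fetal bovine serum and given no further treatment. BV2 is 1 established line. Separate cultures are not named for the libraries within a group, and the p-values therefore cover the scatter of these 12 libraries alone, part of which may be technical. The replicate numbers 1 to 3 recur in the controls and the treated cells, and the labels do not say what a shared number stands for.

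DNA is repaired by several routes, each with its own proteins. Homologous recombination copies a broken stretch from the sister chromatid: BRCA1 with its partner BARD1 prepares the ends, PALB2 and BRCA2 act at the prepared ends, and the RAD54 proteins, RAD51C, XRCC2 and XRCC3 assist the exchange of strands. The Fanconi anaemia pathway removes crosslinks between the DNA strands: a core complex (FANCA, FANCB, FANCC, FANCG, FANCL, FANCM) attaches ubiquitin to the FANCD2 and FANCI pair, which then recruits nucleases. Mismatch repair, base excision repair and single-strand break repair correct smaller lesions, and the kinases ATM, ATR, CHEK1 and CHEK2 signal damage and stalled forks. Many of these genes are transcribed mainly in cells that replicate their DNA.

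The sequence before the start of a gene is shown for 6 of the genes because so many of them moved together. RefSeq (GRCm38.p6) gave the stretch from 250 bases before to 50 bases after the transcription start for 30 of the 34 genes, and Exo1, Xrcc2, Fancd2 and Rad54b had no entry. Each line gives the 300 bases 5′ to 3′ on the strand of the gene, with letters of a binding motif of E2F, the factor family of the G1 to S transition, in capitals. Bard1 (chr1:71102923-71103222, minus strand), Chek1 (chr9:36726609-36726908, minus strand) and Fancb (chrX:164980342-164980641, plus strand) are 3 of the genes with the smallest p after knockdown that hold such letters. Parp1 (chr1:180568641-180568940, plus strand) and Fanci (chr7:79392088-79392387, plus strand) belong to the same top genes and lack them. Rad51c (chr11:87404457-87404756, minus strand) carries them and hardly moved.
Bard1: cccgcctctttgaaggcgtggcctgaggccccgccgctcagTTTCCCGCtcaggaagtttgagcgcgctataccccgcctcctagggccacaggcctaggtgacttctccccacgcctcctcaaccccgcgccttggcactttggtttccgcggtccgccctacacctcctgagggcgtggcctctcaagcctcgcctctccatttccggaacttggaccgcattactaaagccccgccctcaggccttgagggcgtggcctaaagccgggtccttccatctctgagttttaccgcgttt
Chek1: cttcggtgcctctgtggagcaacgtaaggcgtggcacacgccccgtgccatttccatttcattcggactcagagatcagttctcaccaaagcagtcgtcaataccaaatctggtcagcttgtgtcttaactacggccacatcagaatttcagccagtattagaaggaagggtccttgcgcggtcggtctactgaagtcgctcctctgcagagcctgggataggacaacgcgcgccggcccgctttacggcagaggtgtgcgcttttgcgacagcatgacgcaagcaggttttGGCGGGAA
Fancb: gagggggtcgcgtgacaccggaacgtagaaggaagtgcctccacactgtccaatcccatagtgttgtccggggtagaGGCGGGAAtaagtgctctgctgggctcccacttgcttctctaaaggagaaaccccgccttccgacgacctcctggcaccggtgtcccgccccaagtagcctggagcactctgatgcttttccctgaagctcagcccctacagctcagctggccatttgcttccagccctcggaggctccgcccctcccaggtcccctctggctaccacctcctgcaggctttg
Parp1: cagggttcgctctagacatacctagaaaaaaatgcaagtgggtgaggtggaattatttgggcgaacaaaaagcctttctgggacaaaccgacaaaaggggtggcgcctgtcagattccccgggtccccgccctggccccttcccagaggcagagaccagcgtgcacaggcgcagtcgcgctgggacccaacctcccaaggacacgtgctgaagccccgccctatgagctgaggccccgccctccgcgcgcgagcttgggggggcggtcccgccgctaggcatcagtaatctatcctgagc
Fanci: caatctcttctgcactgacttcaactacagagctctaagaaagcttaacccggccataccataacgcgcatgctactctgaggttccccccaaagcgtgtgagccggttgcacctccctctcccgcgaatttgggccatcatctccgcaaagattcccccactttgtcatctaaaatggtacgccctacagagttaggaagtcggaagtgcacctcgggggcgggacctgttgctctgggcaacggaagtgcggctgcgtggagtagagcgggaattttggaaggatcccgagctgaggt
Rad51c: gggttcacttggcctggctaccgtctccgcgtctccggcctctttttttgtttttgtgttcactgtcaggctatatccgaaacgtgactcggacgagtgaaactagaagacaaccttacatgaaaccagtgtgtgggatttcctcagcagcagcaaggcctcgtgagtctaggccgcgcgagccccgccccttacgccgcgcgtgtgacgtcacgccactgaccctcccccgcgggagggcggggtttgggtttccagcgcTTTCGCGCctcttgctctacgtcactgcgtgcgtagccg

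The letters searched, on both strands, were TTTCCCGC, TTTGGCGC, TTTCGCGC, TTTGCCGC and TTCCCGCC, of which the first and the last overlap. They occurred in 11 of the 30 genes with a promoter (36.7%), against 4.46% of 27025 genes and 3.89% of 32851 promoters of the same length. Among the 18 genes with a promoter that were called higher after knockdown, described next, 6 had them, and among the 12 that were not called 5 had them. In Bard1 they started 209 bases before the transcription start, and in Fancb 173 bases before it, while in Chek1 they began 42 bases and in Rad51c 11 bases after it. GAGGAAGT, letters bound by PU.1, occurred in 1 of the 30 genes (Fancc) against 3.69% of genes, and the shorter ETS core AGGAAG in 11 of the 30 (36.7%) against 38.4% of genes. The cell cycle element CHR (TTTGAA or TTCGAA) occurred in 4 of the 30 (13.3%) against 21.7% of genes, and CCAAT in 16 of the 30 (53.3%) against 41.1%. These motifs were chosen with the direction of the genes known, a match is not a measured site, and binding was not measured in these libraries. The genes and promoters behind the shares over all genes were not matched to the 30 for their content of G and C bases or for their level.

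The libraries held 22.3 to 33.1 megareads on genes, and 14871 to 15492 genes were above 0 in each. The reads behind a repair gene in a library ran from 136 to 8559. Spi1 (chr2:91082390-91115756, plus strand) followed the labels in every library. The scrambled controls held 159, 169 and 168 FPKM of Spi1 and the knockdown libraries 50.9, 42.4 and 52.3 FPKM (log2 fold change −1.75, limma, adjusted p = 0.000697). The empty controls held 158, 117 and 131 FPKM and the overexpression libraries 287, 224 and 206 FPKM (log2 fold change 0.81), without overlap, but the change did not pass the adjustment over all genes. With the replicate number as a block it passed (adjusted p = 0.0357). Of 12 macrophage markers, Cx3cr1 was under 1 FPKM in all 12 libraries and Lyz2 was the highest. In the overexpression experiment the libraries numbered 2, control and treated alike, stood below the mean of numbers 1 and 3 for 26 of the 34 repair genes. The median over all genes was also the lowest of its group in these libraries.

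Most of the repair genes were moderately higher after knockdown of Spi1. Of 34 genes tested, 22 were higher, 0 were lower and 12 did not pass (limma on log2(FPKM + 1), adjusted p under 0.05 over 11214 genes). Over all genes tested, 17.4% were called higher and 8.86% lower. The median log2 fold change of the 34 genes was 0.38 against 0.07 over all genes, and 33 of the 34 values were positive. In bulk RNA, more cells that express a gene and more of its RNA per cell cannot be told apart. The called changes ran from 0.28 in Xrcc2 to 0.998 in Fancd2, and 0 genes reached 1 log2 unit on the scale of log2(FPKM + 1). That scale shrinks changes, and the ratio of mean FPKM in Fancd2 was 2.18. In 28 of the 34 genes the lowest knockdown library stood above the highest scrambled control, a separation that 30.3% of all genes tested showed, and in 6 genes (Brca2, Palb2, Rad51c, Fancc, Atm and Chek2) the libraries overlapped. In 30 genes the knockdown library was higher in each of the 3 same-numbered pairs, which was not counted over all genes. With the replicate number as a block 24 of the 34 passed, against 30.6% of all genes called higher.

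**Figure D1:**
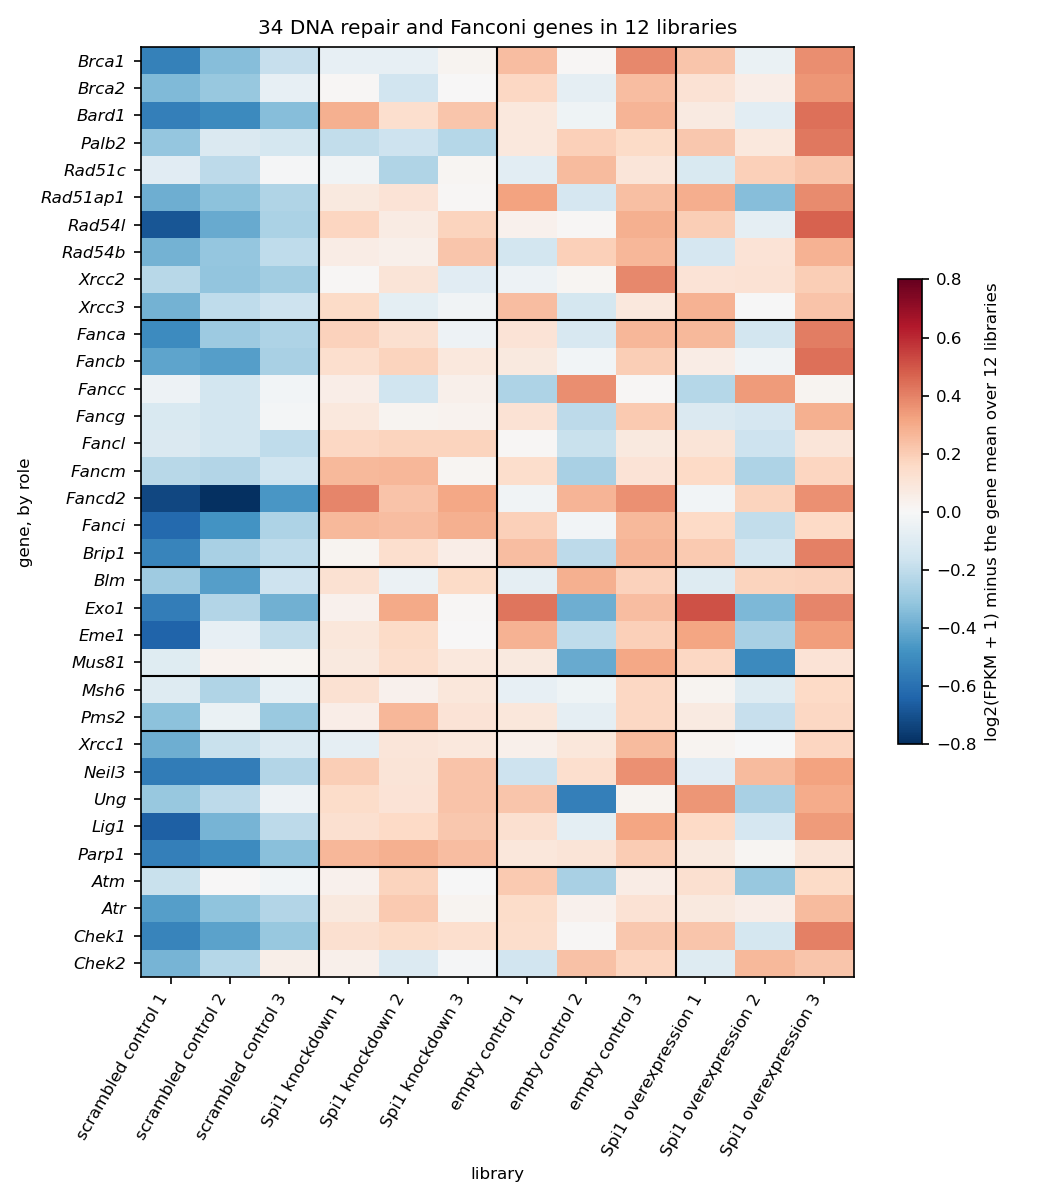
Level of each of the 34 genes (rows, grouped by role) in each of the 12 libraries (columns), as log2(FPKM + 1) minus the mean of that gene over all libraries. The 3 scrambled controls at the left are the bluest columns, with Fancd2 the deepest row, and in 30 of the 34 rows the knockdown libraries lie nearer to the empty controls than the scrambled controls do.

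The count changed with the scaling and with the libraries used. With median-of-ratios scaling, 19 of the 34 genes stayed called (Brca1, Pms2 and Xrcc2 did not), against 11.5% of all genes called higher, and over all genes the split moved from 1952 higher and 993 lower to 1295 higher and 1413 lower. Without both libraries numbered 1 the count was 9, without both numbered 2 it was 3 (Bard1, Parp1 and Fancd2), and without both numbered 3 it was 12, each time with only 2 libraries left a group. The share of all genes called higher in these fits was 5.84%, 2.24% and 3.97%, and all 22 log2 fold changes stayed positive. Without 1 library, 14 of the 22 were called in all 6 fits, and 8 were not. Brip1 was lost without knockdown 2 or 3, and Fanca and Fancm without knockdown 1 or 2. Ung and Blm were lost without scrambled control 1 or 2 or knockdown 1 or 3, Pms2 without scrambled control 1 or 3 or knockdown 2 or 3, and Xrcc2 without scrambled control 2 or 3 or knockdown 1 or 2. Brca1 was lost without any library but scrambled control 3.

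Among 9 Fanconi genes 7 rose, with a median log2 fold change of 0.40 for the group. Fancd2 (chr6:113531682-113597017, plus strand), the substrate that is ubiquitinated when a crosslink is met, moved most of all 34. In the scrambled controls it read 4.90, 4.38 and 6.09 FPKM, and after knockdown 11.8, 10.5 and 11.2 FPKM, with means of 5.12 ± 0.877 and 11.2 ± 0.684 FPKM (SD, n = 3 each). The lowest knockdown library was far above the highest control, and the ratio of the means was 2.18. On the log2 scale the change was 0.998 ± 0.11 (SE; limma, adjusted p = 0.00253).

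Fanci, the partner of Fancd2 in the clamp on DNA, moved with it. Control libraries read 3.98, 4.51 and 5.47 FPKM, and knockdown libraries 8.20, 8.12 and 8.33 FPKM. The 3 knockdown libraries lay within a narrow band above all controls, at a log2 fold change of 0.71 ± 0.10 (SE; limma, adjusted p = 0.0041). Fanci shares 16.0% of its annotated exon bases with Polg on the other strand, and since the library kit does not mark strand, reads of the shared part cannot be assigned to either gene.

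The core complex did not move evenly. Fancb (chrX:164980592-164997272, plus strand), an X-linked core subunit that holds the ligase module together, stood at 1.90, 1.87 and 2.25 FPKM in the controls and at 3.27, 3.41 and 3.13 FPKM after knockdown, without overlap, at a log2 fold change of 0.51 ± 0.07 (SE; limma, adjusted p = 0.00449). Fancl, the ubiquitin ligase itself, rose by a smaller amount but with little spread, from 6.49, 6.35 and 6.07 FPKM to 8.11, 8.19 and 8.22 FPKM (log2 fold change 0.33, adjusted p = 0.00837). Fanca rose from 14.4, 16.9 and 17.4 FPKM to 23.9, 22.8 and 20.3 FPKM (log2 fold change 0.44), and Fancm, the translocase that anchors the complex to DNA, rose from 3.19, 3.15 and 3.37 FPKM to 4.85, 4.87 and 3.94 FPKM (0.39). Brip1, the helicase that binds BRCA1, rose from 2.54, 3.26 and 3.42 FPKM to 4.18, 4.60 and 4.29 FPKM (0.40).

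The other core subunits did not pass. Fancg stood at 4.61, 4.52 and 5.04 FPKM in the controls and at 5.49, 5.21 and 5.22 FPKM after knockdown, a small step without overlap (log2 fold change 0.14, adjusted p = 0.138). Fancc read 3.83, 3.50 and 3.89 FPKM against 4.16, 3.46 and 4.11 FPKM, which overlapped (0.05, adjusted p = 0.669), and its sign turned with median-of-ratios scaling. Overlap with another gene on the other strand covers 10.5% of the exon bases of Fanca, 13.7% of Fancl and 16.4% of Fancc.

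Of 10 homologous recombination genes, 6 rose, and the median log2 fold change of the group was 0.30. Bard1 (chr1:71027498-71103146, minus strand) led it, from 2.17, 2.25 and 2.64 FPKM in the scrambled controls to 4.63, 4.07 and 4.38 FPKM after knockdown, a ratio of means of 1.85. These libraries did not overlap, and the log2 fold change was 0.68 ± 0.08 (SE; limma, adjusted p = 0.0029). Its partner Brca1 changed less: 6.47, 7.57 and 8.59 FPKM became 9.40, 9.39 and 10.03 FPKM (log2 fold change 0.32), and its adjusted p of 0.0467 was close to the threshold.

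Rad51ap1, which stimulates strand pairing, rose from 9.22, 9.65 and 10.3 FPKM to 13.1, 13.4 and 12.4 FPKM, at a log2 fold change of 0.38 ± 0.07 (SE; limma, adjusted p = 0.00829). Rad54l, a DNA translocase of recombination, rose from 6.88, 8.56 and 9.62 FPKM to 13.2, 12.2 and 13.3 FPKM (0.58, adjusted p = 0.011), and its relative Rad54b from 1.18, 1.28 and 1.47 FPKM to 1.95, 1.91 and 2.30 FPKM (0.40). In none of these 3 did a knockdown library fall among the controls. Rad54b shares 35.8% of its exon bases with Fsbp on the same strand and Rad54l 15.4% with Lrrc41 on the other, so their reads are uncertain. Xrcc2 rose from 2.35, 2.14 and 2.22 FPKM to 2.93, 3.20 and 2.67 FPKM (0.28).

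Palb2, Brca2, Rad51c and Xrcc3 did not pass. Palb2, the bridge between BRCA1 and BRCA2, read 2.39, 2.87 and 2.80 FPKM in the controls and 2.65, 2.74 and 2.57 FPKM after knockdown, with overlap and the single negative log2 fold change of the 34 (−0.01, SE 0.07, adjusted p = 0.931). Brca2 read 1.45, 1.53 and 1.99 FPKM against 2.15, 1.82 and 2.14 FPKM, with 1 knockdown library below the highest control (0.20, adjusted p = 0.159). Rad51c read 2.45, 2.17 and 2.65 FPKM against 2.60, 2.10 and 2.71 FPKM (0.02, adjusted p = 0.894), and its sign turned with median-of-ratios scaling. Xrcc3, the partner of RAD51C, stood above its controls without overlap, at 8.28, 6.90 and 7.19 FPKM against 5.42, 6.23 and 6.45 FPKM, but missed the threshold (0.27, adjusted p = 0.0645).

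Among the roles of the 34 genes, base excision and single-strand break repair showed the highest group median, 0.58, with 4 of 5 genes called. This rank rests on the 5 listed genes. The 17 other base excision repair genes had a median of 0.17, with 4 called higher. Parp1 (chr1:180568924-180601254, plus strand), the sensor of single-strand breaks and the most abundant of the 34, had the smallest p. It stood at 38.5, 39.8 and 44.7 FPKM with the scrambled hairpin and at 68.4, 69.3 and 67.7 FPKM with the hairpin against Spi1, with means of 41.0 ± 3.31 and 68.5 ± 0.835 FPKM (SD, n = 3 each). The knockdown libraries differed from each other by far less than from the controls, and the log2 fold change was 0.73 ± 0.07 (SE; limma, adjusted p = 0.00193).

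Neil3, a glycosylase of oxidised bases that also unhooks crosslinks, rose from 6.25, 6.27 and 8.08 FPKM to 11.2, 10.5 and 11.5 FPKM, without overlap (log2 fold change 0.63 ± 0.10, SE; limma, adjusted p = 0.00633). Lig1, the ligase of replication and long-patch repair, rose from 15.6, 19.2 and 21.5 FPKM to 27.5, 28.1 and 29.2 FPKM (0.58, adjusted p = 0.0113). Ung, which removes uracil, rose from 7.33, 7.90 and 8.99 FPKM to 10.4, 10.1 and 11.05 FPKM (0.35, adjusted p = 0.0224). All 3 genes were separated from their controls. Xrcc1, the scaffold of single-strand break repair, stood at 17.2, 20.1 and 21.1 FPKM against 21.8, 24.6 and 24.4 FPKM, again separated, and did not pass (0.26, adjusted p = 0.071). With the replicate number as a block it passed (adjusted p = 0.0114).

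The remaining roles were mixed. Of the helicase and the nucleases, Exo1, the end-resecting exonuclease, rose from 3.28, 4.34 and 3.81 FPKM to 5.44, 6.77 and 5.34 FPKM (log2 fold change 0.51, adjusted p = 0.017), and the helicase Blm rose from 8.61, 7.62 and 9.41 FPKM to 11.7, 10.3 and 12.01 FPKM (0.37, adjusted p = 0.0242). Mus81 and Eme1 form 1 nuclease, and neither passed: Mus81 read 9.05, 9.97 and 9.91 FPKM against 10.4, 10.9 and 10.4 FPKM (0.12, adjusted p = 0.198). Eme1 read 7.51, 11.7 and 10.6 FPKM against 13.1, 13.7 and 12.3 FPKM (0.38, adjusted p = 0.0866), with its lowest value in the scrambled control numbered 1. In mismatch repair, Pms2, which carries the nuclease activity of the pathway, rose from 4.27, 5.38 and 4.39 FPKM to 5.87, 6.96 and 6.14 FPKM (0.37, adjusted p = 0.0295). Msh6, the mismatch sensor, read 17.7, 16.1 and 18.4 FPKM against 21.0, 19.7 and 20.5 FPKM (0.22, adjusted p = 0.0558), and it passed with the replicate block (adjusted p = 0.0188).

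Of the 4 checkpoint kinases, 2 rose, both known from replication stress. Chek1 (chr9:36708482-36727065, minus strand) went from 3.45, 3.77 and 4.21 FPKM to 6.03, 6.16 and 6.05 FPKM, at a log2 fold change of 0.56 ± 0.07 (SE; limma, adjusted p = 0.00383). Atr, the kinase upstream of it, went from 3.64, 4.03 and 4.35 FPKM to 5.63, 6.25 and 5.38 FPKM (0.43, adjusted p = 0.0101). The kinases of double-strand breaks did not pass, and their libraries overlapped. Atm read 8.31, 9.57 and 9.40 FPKM against 9.81, 10.9 and 9.50 FPKM (0.14, adjusted p = 0.245), and Chek2 read 7.08, 7.93 and 9.81 FPKM against 9.75, 8.71 and 9.41 FPKM (0.16, adjusted p = 0.317). Whether the kinases differ from each other was not tested.

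**Figure D2:**
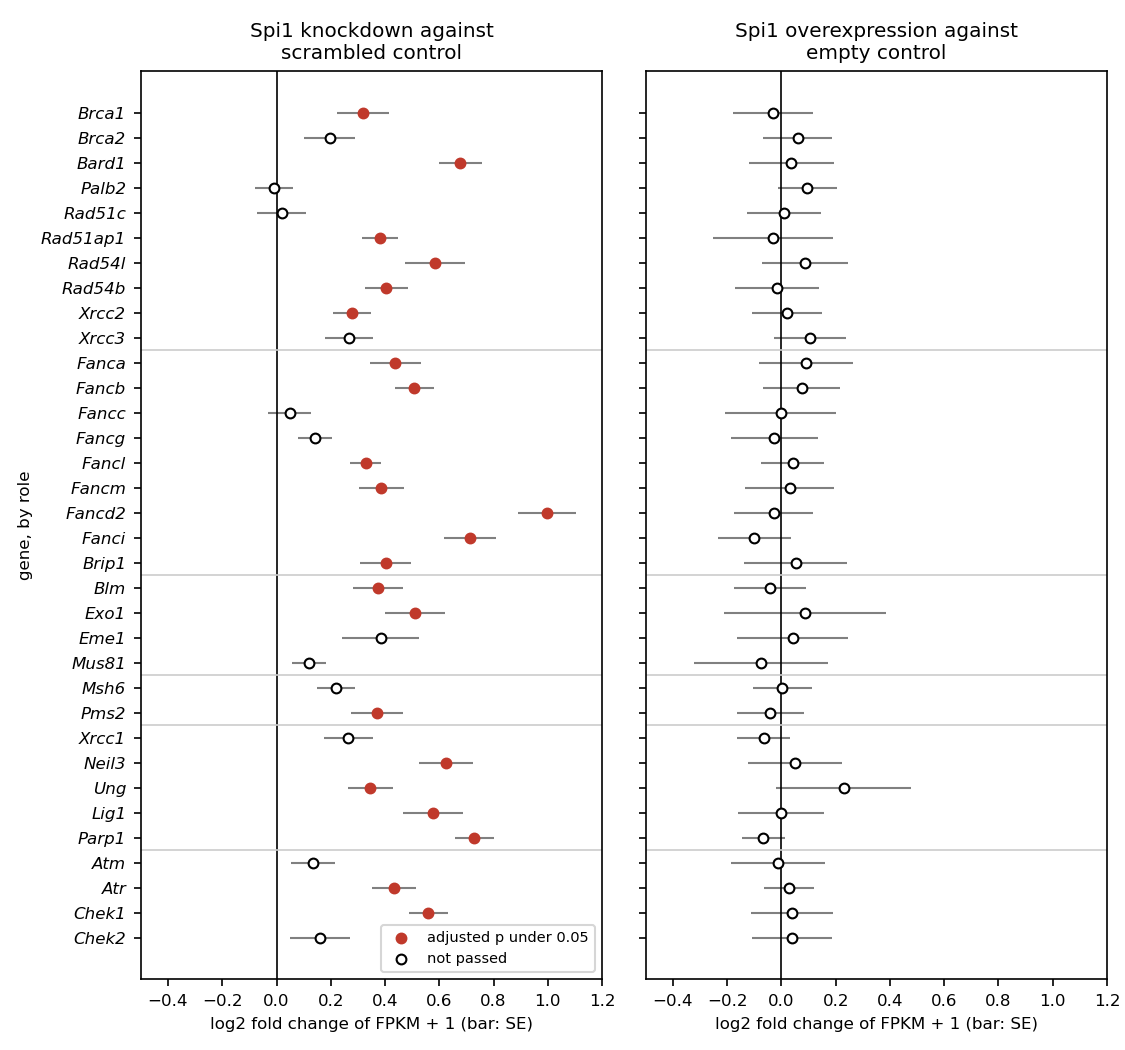
Log2 fold change of FPKM + 1 for the 34 genes, ordered by role, in the knockdown (left) and the overexpression (right) experiment, with bars for the SE and filled points for an adjusted p under 0.05. At the left 33 of 34 points lie above 0 and 22 are filled, and at the right none is filled and the values run from −0.10 to 0.23.

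Overexpression of Spi1 moved none of the repair genes past the threshold. Of the 34 genes, 0 were called, as were 0% of 11217 genes tested, and 0 of the 34 had an unadjusted p under 0.05, which 122 of all genes had. The log2 fold changes ran from −0.10 in Fanci to 0.23 in Ung, with a median of 0.02 against −0.01 over all genes, and 20 were positive. In all 34 genes the overexpression libraries overlapped the empty controls, as they did in most genes tested. Over all genes only 1.66% stood wholly above and 2.4% wholly below them. With the replicate number as a block, 13 of all genes passed (0.116%) and still 0 of the 34, the smallest blocked adjusted p being 0.169 for Ung. In the blocked fit 1577 of all genes and 1 of the 34 had an unadjusted p under 0.05. The unblocked fit leaves out the pattern shared by same-numbered libraries, and Spi1 itself did not pass in it. Its count of 0 therefore does not show that the repair genes stayed unchanged.

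The same genes varied more between libraries here. The median SE of a log2 fold change was 0.15 over the 34 genes, against 0.09 in the knockdown experiment. Fancd2 read 8.61, 10.8 and 11.6 FPKM in the empty controls and 8.67, 10.1 and 11.6 FPKM after overexpression, and the libraries with the same number lay close together (log2 fold change −0.03 ± 0.15, SE). Parp1 read 60.4, 61.0 and 65.6 FPKM against 60.1, 57.3 and 61.0 FPKM (−0.07 ± 0.08, SE). Fanci read 7.76, 6.56 and 8.17 FPKM against 7.58, 5.70 and 7.58 FPKM (−0.10 ± 0.14, SE). Ung, with the highest value of the 34, read 10.997, 6.04 and 9.46 FPKM against 12.2, 7.58 and 11.6 FPKM and was higher in all 3 same-numbered pairs (0.23 ± 0.25, SE). For Brca1, which changed by 0.32 after knockdown, the SE in this experiment was 0.15. Without both libraries numbered 2 the count of called repair genes was again 0.

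The difference between the effects was tested directly, as the overexpression effect minus the knockdown effect over all 12 libraries. It passed for 3 of the 34 genes, all with the overexpression effect lower, against 2.94% of 11224 genes called in that direction. The differences were −0.80 ± 0.10 log2 for Parp1 (SE; limma, adjusted p = 0.00289), −1.03 ± 0.19 for Fancd2 (adjusted p = 0.0206) and −0.81 ± 0.17 for Fanci (adjusted p = 0.0265). For 33 of the 34 genes the value was negative (the exception was Palb2, 0.11), with a median of −0.35 against −0.09 over all genes. With the replicate block 21 of the 34 passed, against 28.6% of all genes. Without 1 library, Parp1 passed in 12 of 12 fits, Fancd2 in 8 and Fanci in 6, and without both knockdown experiment libraries numbered 2 the count was 0. Fancd2 was lost without scrambled control 2, knockdown 1, knockdown 3 or empty control 3, and Fanci without any of these or scrambled control 1 or knockdown 2. Without both overexpression experiment libraries numbered 2 the count was 3. Since Spi1 was lowered by knockdown and raised by overexpression, a difference can also come with a constant response to Spi1.

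**Figure D3:**
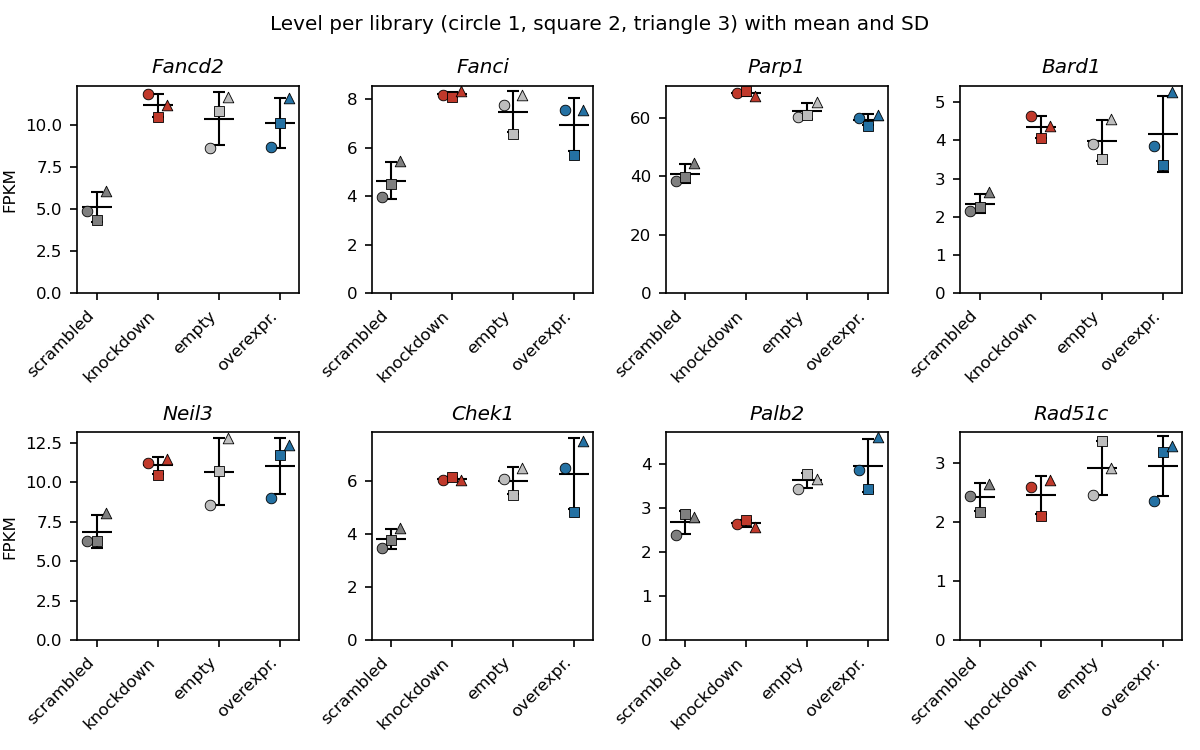
FPKM of 8 genes in each library (circle, square and triangle for the numbers 1, 2 and 3), with the mean and SD of each group as bars and the axis from 0. Fancd2, Fanci, Parp1, Bard1, Neil3 and Chek1 are lowest in the 3 scrambled controls, while Palb2 and Rad51c show no such step between the scrambled controls and the knockdown libraries.

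Set beside each other, the 4 groups did not order by their Spi1 level. In 32 of the 34 genes the scrambled controls had the lowest mean, and in all 34 they were below the empty controls, at a median difference of −0.40 on the log2 scale. The knockdown libraries differed from the empty controls by a median of 0.01, with 13 genes lower, and in 30 of the 34 genes they were nearer to the empty controls than the scrambled controls were. Of the 22 called genes, 20 were. Such counts were not made over all genes. Genes at large leaned the same way by a small amount. Their median difference from the empty controls, over 11224 genes, was −0.07, −0.04 and −0.02 for scrambled controls 1 to 3. For knockdown libraries 1 to 3 it was 0.01, 0.03 and 0.03. The median of the 34 genes relative to the empty controls was −0.49, −0.37 and −0.31 in the scrambled controls 1 to 3, and 0.01, 0.03 and −0.00 in the knockdown libraries. The controls were made in different experiments, with a scrambled hairpin in one and an empty control in the other, so an effect of the hairpin and a shift between experiments cannot be told apart, and no test was made across them.

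Libraries numbered 2 stood apart in the overexpression experiment, in both arms. For 26 of the 34 genes both libraries numbered 2 were below the mean of 1 and 3 of their group, for 7 both were above, and for 1 they fell on opposite sides. Exo1 was lowest, at 3.79 FPKM against 7.45 and 6.47 in the empty controls and at 3.91 FPKM against 7.95 and 7.26 after overexpression. Ung, Mus81, Eme1 and Rad51ap1 were also low in both libraries numbered 2. Fancc went the other way, at 5.44 FPKM against 3.19 and 4.01 and at 5.30 FPKM against 3.24 and 4.04. In the knockdown experiment the libraries numbered 2 were below in both arms for 13 genes, above in both for 11 and on opposite sides for 10. Over all genes the libraries numbered 2 of the overexpression experiment were also low. Relative to the mean of the empty controls their medians were −0.05 in the empty control and −0.08 after overexpression. Numbers 1 and 3 stood at 0.02 and 0.03 in the empty controls and at 0.01 and 0.03 after overexpression. The share of all genes below in both arms was not counted.

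**Figure D4:**
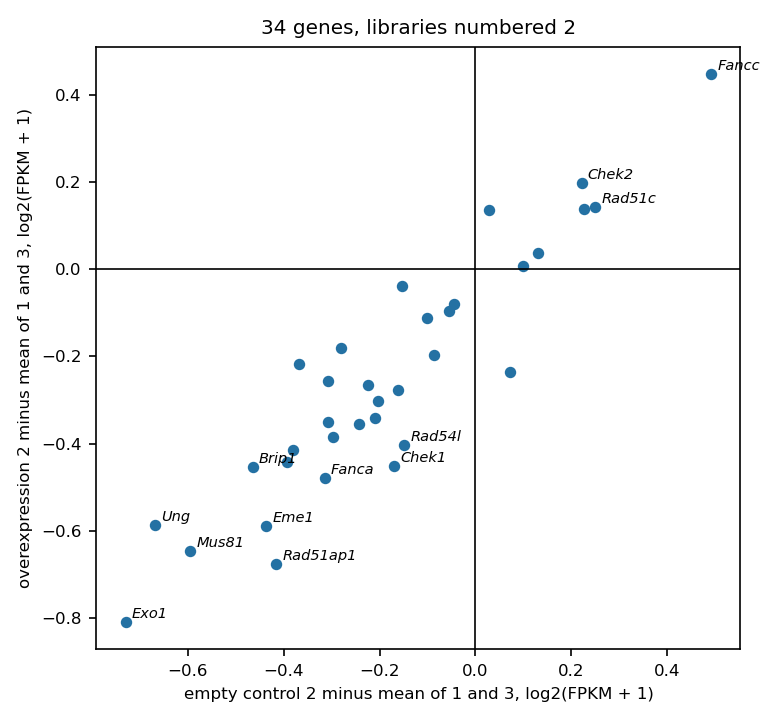
Each point is 1 of the 34 genes: the library numbered 2 minus the mean of libraries 1 and 3, in log2(FPKM + 1), in the empty controls (x) and after overexpression (y). There are 26 points at the lower left, with Exo1 the lowest, and 7 in the upper right, with Fancc the highest.

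Many other repair genes were also higher after knockdown. Of 121 other repair genes, 120 passed the filter on low values, 46 were called higher and 1 lower, and their median log2 fold change was 0.21. Over all genes tested, 17.4% were called higher and 8.86% lower in the same fit. In homologous recombination and end resection 13 of 25 rose, among them Mnd1 (0.71, adjusted p = 0.00404), known from meiotic strand exchange, and its partner Psmc3ip (0.55, adjusted p = 0.00642). In the Fanconi pathway 6 of 12 rose, led by Ube2t, the ubiquitin-conjugating enzyme that acts with FANCL (from 8.69 ± 1.13 to 14.5 ± 0.777 FPKM, SD, n = 3), and the core subunit Fance. Ube2t changed by 0.68 and Fance by 0.48 on the log2 scale (limma, adjusted p = 0.00462 and 0.00712).

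Damage signalling had 9 of 18 genes higher, with Mdc1, the reader of phosphorylated H2AX, at 0.59 and the ATR activator Etaa1 at 0.38. In end joining 4 of 11 rose, among them Xrcc6, which encodes Ku70 (0.49), and Polq (0.58), and in mismatch repair 3 of 6 tested. The counts were 4 of 17 in base excision repair (Tdg 0.45, Apex1 0.47), 4 of 19 in nucleotide excision repair (Gtf2h1 0.48, Gtf2h2 0.36) and 3 of 12 in translesion synthesis (Rad18 0.41, Mad2l2 0.45), each against the 17.4% of all genes called higher. Ube2a, the ubiquitin-conjugating partner of RAD18, was the 1 gene called lower (−0.20 on the log2 scale, limma, adjusted p = 0.0457). With median-of-ratios scaling the other repair genes had 38 higher and 3 lower, and base excision repair 2 higher and 2 lower. In that fit 11.5% of all genes were called higher. With the replicate block the other repair genes had 67 higher and 3 lower. Among the higher genes 10 were in nucleotide excision repair, 8 in base excision repair and 14 in damage signalling. In the blocked fit 30.6% of all genes were called higher. After overexpression 0 of the 120 were called. The difference between the effects passed for 3 of them with the overexpression effect lower, among them Xrcc6 (−0.52) and Mdc1 (−0.71), a share near the 2.94% of all genes called in that direction.

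Cell cycle genes moved beside the repair genes. After knockdown 20 of 30 G1/S and DNA replication genes were higher, with a median log2 fold change of 0.53, among them Mcm7, a subunit of the replicative helicase (0.74, adjusted p = 0.00615). All 30 of the G2/M and mitosis genes were higher, with a median of 0.95, among them Top2a (0.96, adjusted p = 0.00254). Of all genes tested, 17.4% were called higher. After overexpression neither list had a call, with medians of 0.04 and −0.13, and all 30 values of the G2/M list were negative. With the replicate block there was again no call in either list. In that fit 17 of the 30 G2/M genes and 1 of the 30 G1/S genes had an unadjusted p under 0.05. Over all 11217 genes tested, 1577 had. The difference between the effects passed, with the overexpression effect lower, for 1 of the 30 G1/S genes (median −0.45) and 23 of the 30 G2/M genes (median −1.08). Relative to the empty controls the scrambled controls stood at a median of −0.39 for the G1/S list and −0.82 for the G2/M list, and the knockdown libraries at 0.09 and 0.13. The libraries numbered 2 of the overexpression experiment were at −0.27 and −0.33 for the G1/S list, with the 34 repair genes at −0.14 and −0.15. For the G2/M list they were at −0.11 and −0.33, and the empty control numbered 1 was lower than number 2, at −0.15. The part of the cell cycle in the repair gene result was not tested.

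**Figure D5:**
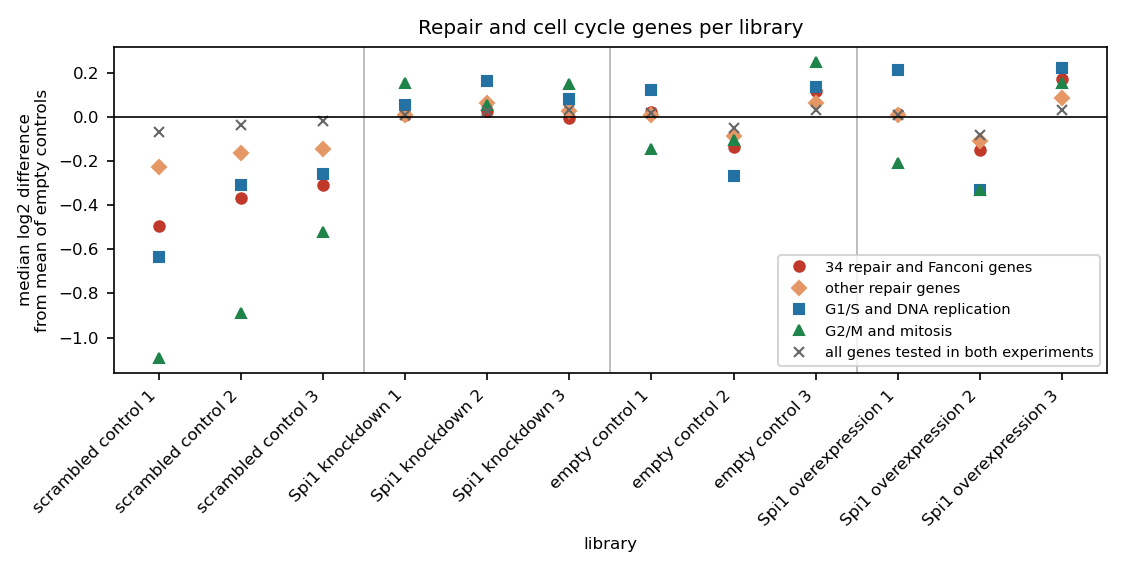
Median log2 difference from the mean of the empty controls for the 34 genes, 121 other repair genes, both cell cycle lists and all genes, in each of the 12 libraries. The 3 scrambled controls are low for all 4 lists, deepest for G2/M (−1.09, −0.89 and −0.52), and the knockdown libraries lie between −0.00 and 0.16 in every list.

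Markers of the cell type moved as well. Of 11 macrophage markers tested, 7 were lower after knockdown, 1 was higher (Emr1, which encodes F4/80, by 0.74 on the log2 scale) and 3 did not pass. Cx3cr1, too low to be tested, read 0.124, 0.325 and 0.557 FPKM with the scrambled hairpin and 0.842, 0.859 and 0.903 FPKM after knockdown. The summed level of the 12 markers was 4841 to 5636 FPKM in the scrambled controls, 3167 to 3950 in the knockdown libraries, 4426 to 5899 in the empty controls and 4827 to 6401 after overexpression. Lyz2, the highest marker, weighed most in this sum, with means of 2387 FPKM in the scrambled controls and 1197 after knockdown. The 3 markers that did not pass were Cd68 (means of 641 and 634 FPKM), Fcer1g (705 and 667) and Aif1 (7.82 and 5.25). Of 42 markers of astrocytes, neurons, oligodendrocytes, endothelial cells, fibroblasts and T and B cells, 38 were under 1 FPKM in all libraries, and Aqp4, Gja1, Rbfox3, Snap25, Syt1, Olig2, Lum and Cd3e were at 0. The 4 others were Kdr, Flt1, Syn1 and Cnp, of which Kdr (log2 fold change 0.37), Flt1 (0.34) and Cnp (0.49) were called higher after knockdown. The endothelial list, made up almost wholly of Kdr and Flt1, summed to 90.7 to 91.3 FPKM in the scrambled controls, 115 to 120 in the knockdown libraries, 82.1 to 103 in the empty controls and 76.2 to 97.3 after overexpression. The part of these markers in the repair gene result was not tested.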

How the data were processed

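Polyadenylated RNA of 12 BV2 libraries was sequenced by the submitters with a TruSeq RNA kit on an Illumina HiSeq (100-base single reads), per the labels' protocols; that kit does not mark strand. Named without roles in the submitters' processing notes are the build mm10, STAR 2.5.2a, featureCounts, DESeq2 1.14, CASAVA 1.8.2 and bcl2fastq. Which gene annotation was used is not given in the sources used here. In each experiment the authors deposited 1 table with a value per gene and library that has the form of FPKM: whole read counts, recovered to within 0.01 read for 17842 of 17842 genes above 0, divided by a gene length and a library total. All per-sample columns were used.

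Genes whose mean in a fit reached 1 FPKM were tested as log2(FPKM + 1) with limma 3.58.1 (R 4.3.3) without trend, with Benjamini-Hochberg adjustment over all genes tested and a threshold of 0.05. The fits were knockdown against scrambled control (3 against 3), overexpression against empty control (3 against 3), and the difference of both effects (12 libraries). The procedure was tested on simulated reads of independent libraries with a fixed spread. Unlike the data, these held no pattern shared by same-numbered libraries. Fold changes on this scale understate the change of low genes. Deviations from the group means correlated between same-numbered libraries at 0.397, 0.540 and 0.345 in the knockdown and 0.791, 0.845 and 0.513 in the overexpression experiment, all above 0.1, so a fit with the number as a block was made; the pairing rests on the numbers in the titles and on these correlations. Alternatives were a pseudocount of 0.1 FPKM, no filter, a filter at 3 FPKM, median-of-ratios scaling, limma with trend and robust, limma-voom on the recovered reads, and leaving out libraries.

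The 34 genes, the other lists and the tests were chosen with earlier results of these data known. By rule, values in every library were given for Spi1, for the 8 called genes with the smallest p, for genes whose effects differed, and for genes of each role that did not pass; the values of the remaining genes were added. Up to 2 called genes with the smallest p were named per other repair list, except that some are not reported here. Gene positions and overlaps are from GENCODE M21 (GRCm38, the assembly of mm10). Its exon bases differ from the gene lengths implied by the deposited values. For Rad54l they are 7706 against 3076 bases, and for Rad54b 5782 against 7051 bases. The overlap shares in the gene models used for counting are therefore not known.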

Additional observations from a re-analysis of the deposited data

Results flagged for a closer look

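For 3 of the 34 genes the overexpression and knockdown effects differed by the test of the difference itself (limma over 12 libraries, overexpression effect minus knockdown effect). Spi1 itself moved in opposite directions, by −1.75 on the log2 scale after knockdown and 0.81 after overexpression. A difference therefore does not by itself mean that a gene responds differently to Spi1. Parp1 differed by −0.80 on the log2 scale (adjusted p = 0.00289), from a knockdown effect of 0.73 and an overexpression effect of −0.07. Fancd2 differed by −1.03 (adjusted p = 0.0206), from 0.998 and −0.03. Fanci differed by −0.81 (adjusted p = 0.0265), from 0.71 and −0.10. In each of the 3 genes the overexpression libraries overlapped the empty controls and the knockdown libraries did not overlap the scrambled controls. The overlap after overexpression was seen in all 34 genes. After knockdown 28 of the 34, and 30.3% of all genes tested, stood wholly above their controls. Neither pattern is therefore particular to these 3 genes.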

How the results depend on the processing

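No called result reversed its direction, and each overexpression count of repair genes stayed at 0. For knockdown, the other settings with all 6 libraries called 19 to 25 of the 34 genes (22 in the report), and limma-voom on the recovered reads called 3302 of all genes. Leaving out 1 library or a same-numbered pair of libraries gave 3 to 20 of the 34 and 457 to 2197 of all genes against 2945; among the fits without 1 library that count moved by over 1.5 times without knockdown 1 (1906), 2 (1715) or 3 (1467). Of the 22 called genes, 14 were called in all 6 fits without 1 library, and 3 in all 3 fits without a pair. For the difference of effects these fits gave 0 to 6 of the 34 (3 in the report), 43 to 585 of all genes against 543, and a median from −0.455 to −0.209. The replicate block gave 5081 genes for knockdown, 13 for overexpression, and 4658 for the difference, there with 21 of the 34; beside those and the calls of Xrcc1 and Msh6 the block changed no call of the 34 genes, while Spi1 passed for overexpression with it. The cause of these shifts was not tested. Depth gave at least 136 reads a gene and library, and 3 libraries a group limit the precision.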
